A study of Mus musculus with 6 samples.

Results

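The genes examined here govern ferroptosis and iron handling in the kidney. They are 10 genes, chosen by name and by role from the 54532 genes of the deposited tables: Gpx4 and Aifm2 for lipid peroxide defence, Acsl4 for the making of peroxidizable lipids, Slc7a11 for cystine import, Tfrc for iron import, Fth1 and Ftl1 for iron storage, Ncoa4 for the turnover of stored iron, Slc40a1 for iron export and Hmox1 for heme breakdown. All 10 were found in the tables and all 10 passed the filter on low counts, which left 15816 genes tested.

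RNA-sequencing was performed on kidneys of 3 wild-type (WT) mice and 3 Trpm2-/- mice (TRPM2-KO in the labels) of the C57BL/6J strain, labelled as 6 to 8 weeks old. Every mouse of both genotypes had received cisplatin, an anticancer drug that injures the renal tubule, at 18 mg/kg, and its kidney was taken 72 h later as a model of acute kidney injury. The comparison is therefore between genotypes under cisplatin, and untreated kidneys were not analysed here. The Trpm2-/- allele lacks exons that encode part of the TRPM2 cation channel in every cell of the body, so a difference in whole kidney cannot be assigned to a cell type. By the study's methods, WT mice came from a commercial supplier and the Trpm2-/- line from another institution, so that genotype and origin cannot be told apart.

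Ferroptosis is an iron-dependent form of cell death in which polyunsaturated phospholipids of membranes are oxidized faster than they are repaired. Acsl4 loads such fatty acids into phospholipids, the selenoenzyme Gpx4 reduces the peroxides with glutathione, Slc7a11 brings in the cystine from which glutathione is made, and Aifm2 (FSP1) regenerates ubiquinol as a separate radical trap. Free ferrous iron feeds the oxidation, and its amount depends on the transferrin receptor Tfrc, the ferritin subunits Fth1 and Ftl1, the ferritin-autophagy receptor Ncoa4, the exporter Slc40a1 (ferroportin) and the heme-degrading enzyme Hmox1, and the proximal tubule is a known site of this death in cisplatin injury.

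Of the 10 genes, Gpx4 alone differed between genotypes past the threshold, being 1.76-fold lower in Trpm2-/- kidneys, and no gene was higher past it. The threshold was an adjusted p under 0.05 in the quasi-likelihood test of edgeR, with Benjamini-Hochberg adjustment over all genes tested. By that test 1902 of the 15816 genes (12%) were called, 750 of them (4.74%) higher and 1152 (7.28%) lower in Trpm2-/- kidneys, so that 1 call among 10 genes is near the background. Read counts scaled to library size did not overlap between genotypes for 1 higher gene (Hmox1), beside 16.7% of all genes tested. They did not overlap for 2 lower genes (Gpx4 and Aifm2), beside 16.8% of all genes tested (33.5% in either direction). The median log2 fold change of the 10 genes was -0.03, with 5 above 0 and 5 below, beside 0.02 over all genes tested. None of the 10 passed the threshold in the study's methods, an absolute log2 fold change above 1 with p under 0.05, which 3.5% of all genes passed upward and 4.1% downward. Without adjustment, 5 of the 10 (Gpx4, Aifm2, Acsl4, Slc7a11 and Hmox1) were under 0.05, beside 28.3% of all genes tested.

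Total counts on genes were 15991951 to 17150089 in WT libraries and 14053307 to 16150446 in Trpm2-/- libraries, so that 3 counts, taken here as the detection floor, correspond to 0.175 to 0.213 CPM, the usual scaling of counts to library size. The mitochondrial genome took 4.43% to 4.72% of counts in WT and 7.91% to 11.04% in Trpm2-/- libraries. All 12 proximal tubule markers were lower in Trpm2-/- kidneys (median log2 fold change -1.45), with a summed level of 10983 to 13464 CPM in WT and 4009 to 5651 CPM in Trpm2-/-, and none of them was at 0. Of 8 markers of injured tubules, Krt20 and Sox9 were higher and none lower, and their summed level was 17648 to 19748 CPM in WT against 19934 to 27979 CPM in Trpm2-/-. The Trpm2 gene had 5, 5 and 27 counts in WT libraries and 10, 16 and 20 in Trpm2-/- libraries, and since these counts also cover exons that the allele retains, they are no check of the genotype. In whole tissue, fewer cells of a type and less RNA per cell cannot be told apart.

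Several of these genes are textbook targets of stress-responsive transcription factors, and their promoters were therefore searched for the letters of 2 such elements. The RefSeq promoter table of build GRCm38.p6, which gives 250 bases before and 50 after each start, held 15 promoters of 8 of the 10 genes. Slc40a1 and Hmox1 had no entry. The antioxidant response element core bound by NRF2 was searched as TGACNNNGC and the C/EBP-ATF response element bound by ATF4 as TGATGNAA, each on both strands. Of all 32851 promoters of the table, 12.4% held the first and 3.97% the second. The Slc7a11 promoter held 2 matches to the second element, starting 66 and 47 bases before the start on opposite strands, and 0.07% of all promoters held 2 or more. Promoter 3 of the 3 Ncoa4 promoters held 1 match to the first element, starting 44 bases before the start. The promoters of Gpx4, Aifm2, Acsl4, Tfrc, Fth1 and Ftl1 held neither element in this window. The 120 bases before each start follow for the promoters that held a match and for 1 of the 4 Gpx4 promoters, since Gpx4 was the gene that passed the test. They are on the gene's strand from 5′ to 3′, with matches in capitals, and lie at chr3:50443614-50443733 (minus strand), chr14:32165669-32165788 (plus strand) and chr10:80053539-80053658 (plus strand). The Ncoa4 and Gpx4 stretches lie inside the annotated genes, which begin at 32159865 and 80047166. Both genes have several annotated starts, so bases before a later start can belong to transcripts from an earlier one.
Slc7a11: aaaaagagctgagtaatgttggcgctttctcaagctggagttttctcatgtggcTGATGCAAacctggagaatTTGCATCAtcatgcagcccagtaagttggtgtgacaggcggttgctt
Ncoa4 promoter 3: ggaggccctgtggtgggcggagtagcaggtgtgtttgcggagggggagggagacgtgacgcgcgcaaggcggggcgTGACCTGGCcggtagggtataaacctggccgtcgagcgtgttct
Gpx4 promoter 3: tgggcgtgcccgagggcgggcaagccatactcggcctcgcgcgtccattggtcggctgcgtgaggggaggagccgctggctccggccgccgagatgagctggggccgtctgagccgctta

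Gpx4 (ENSMUSG00000075706, chromosome 10, 80047166 to 80056439, plus strand) encodes the enzyme that reduces phospholipid peroxides within membranes. Its level was 891, 1112 and 1151 CPM in WT 1, 2 and 3, and 463, 698 and 629.8 CPM in Trpm2-/- 1, 2 and 4. Every Trpm2-/- kidney was below every WT kidney, and Trpm2-/- 1 was the lowest. The mean was 1051 ± 140.4 CPM in WT and 597 ± 121 CPM in Trpm2-/- (SD, n = 3), a log2 fold change of -0.82 (SE 0.191, 95% interval -1.24 to -0.39, edgeR, adjusted p = 0.0246). The call was lost without WT 2 (adjusted p = 0.0972), without WT 3 (0.112) or without Trpm2-/- 1 (0.0574), and in limma on log2(FPKM + 1) without a filter on low values (0.0912), while the log2 fold change over all alternatives stayed between -0.95 and -0.67. With the mitochondrial genome left out of the fit it was -0.80 (adjusted p = 0.0236). The 12 proximal tubule markers moved in the same direction, and their part in the Gpx4 difference was not tested.

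A further row of the table moved with Gpx4. Gpx4-ps2 is a processed pseudogene on chromosome 10 that is annotated as transcribed, and 29.76% of the 75-base windows of the Gpx4 transcripts also occur in other genes, all of these in Gpx4-ps2. It received 2426, 2770 and 2848 counts in WT 1, 2 and 3, and 1322, 1392 and 1360 in Trpm2-/- 1, 2 and 4. The groups did not overlap, and Gpx4-ps2 fell by 0.95 on the log2 scale (SE 0.133, edgeR, adjusted p = 0.00351). Reads of the gene and of its copy cannot be separated within the shared windows. When both rows were summed, an alternative chosen after seeing the data, the log2 fold change of Gpx4 was -0.83 (adjusted p = 0.0203).

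Aifm2 (chromosome 10, 61715263 to 61739260, plus strand) encodes FSP1, which protects membranes without glutathione. It stood at 31.5, 37.5 and 36.1 CPM in the WT kidneys and at 26.7, 27.7 and 28.0 CPM in the Trpm2-/- kidneys. The groups did not overlap, and the 3 Trpm2-/- kidneys lay close together. The log2 fold change was -0.35 (SE 0.130, 95% interval -0.64 to -0.06), which did not pass the test after adjustment (edgeR, adjusted p = 0.111). Aifm2 shares 596 bases with the neighbouring gene H2afy2 on the other strand, and 3.895% of its windows also occur there.

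**Figure D1:**
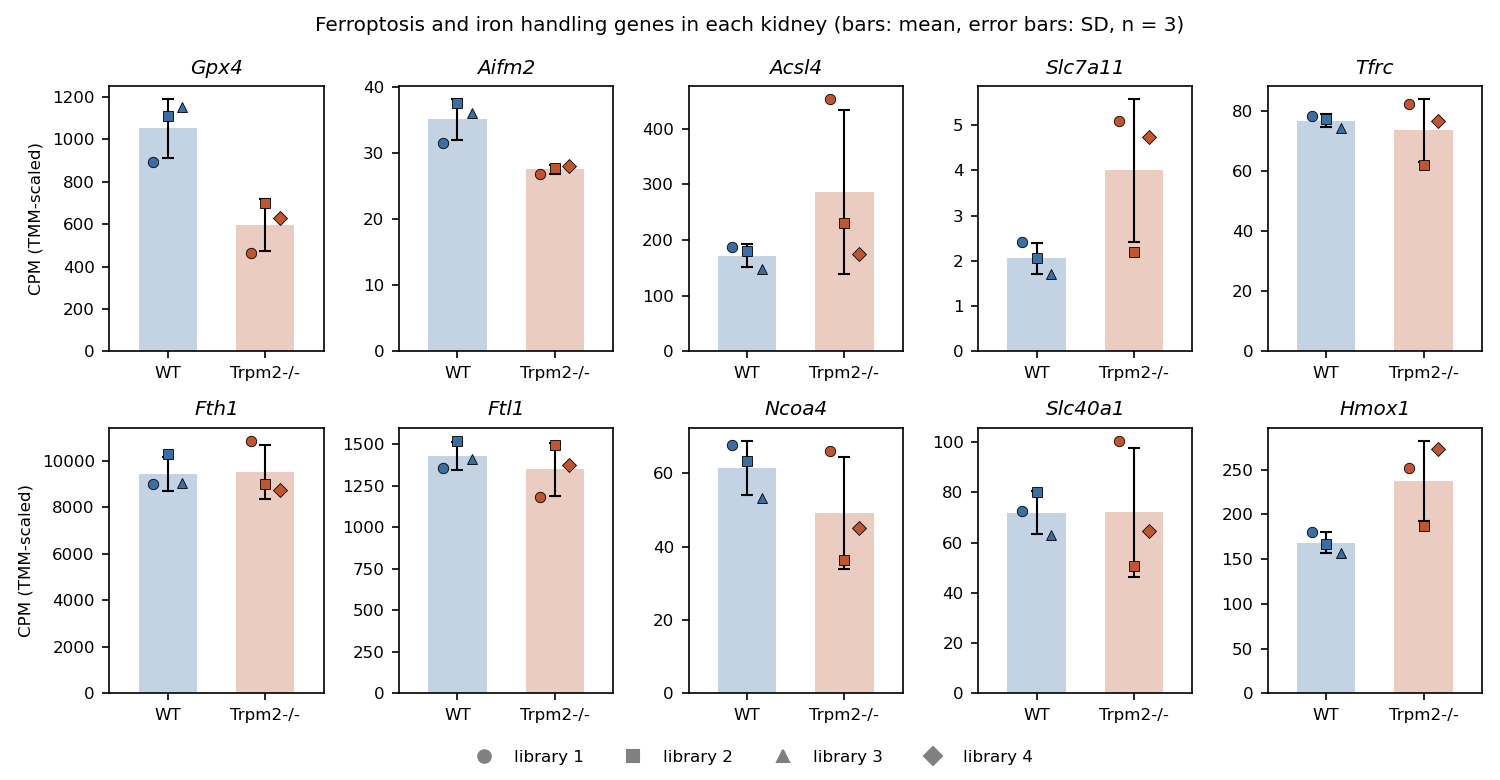
Level of each of the 10 genes in each kidney, in CPM scaled by TMM on the vertical axis, for WT (blue) and Trpm2-/- (orange) kidneys, with bars for the mean, error bars for the SD (n = 3) and the shape of a point for its library number. Gpx4 and Aifm2 are lower and Hmox1 is higher without overlap, and library 1 of Trpm2-/- lies apart for Acsl4 (454 CPM) and Gpx4 (463 CPM).

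Acsl4 (X chromosome, 142317993 to 142390535, minus strand) encodes the ligase that activates arachidonic and adrenic acid for phospholipids. Its level was 187, 179.7 and 149 CPM in the WT kidneys and 454, 231 and 174 CPM in Trpm2-/- 1, 2 and 4. The groups overlapped, since Trpm2-/- 4 lay within the WT range, and Trpm2-/- 1 was far above the rest. The means were 172 ± 20.3 and 286 ± 148 CPM (SD, n = 3), and the log2 fold change of 0.74 (SE 0.303, 95% interval 0.06 to 1.42) did not pass the test (edgeR, adjusted p = 0.147). Without Trpm2-/- 1 the log2 fold change was 0.24 (adjusted p = 0.426), and without Trpm2-/- 4 it was 1.01 and passed (adjusted p = 0.0416). The same library Trpm2-/- 1 had the highest summed level of injured tubule markers (27979 CPM), of which Spp1 was 18489 CPM. Single markers were split, with Sox9 highest in Trpm2-/- 1 (50.9 CPM) and Havcr1 in Trpm2-/- 2 (1902 CPM). The summed level of macrophage markers was also highest in Trpm2-/- 1 (252 CPM, against 155 to 199.8 CPM in WT). There Cd14 (103 CPM) was the highest and Csf1r (11.1 CPM) the lowest of the 6 libraries. The part of these markers in the Acsl4 level was not tested. Of 11 macrophage markers tested, C1qa and C1qc were lower in Trpm2-/- kidneys and none was higher. Both overlapped between groups, since WT 1 (4.93 CPM for C1qa and 2.90 CPM for C1qc) lay within the Trpm2-/- range.

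Slc7a11 (chromosome 3, 49892526 to 50443614, minus strand) encodes the transport subunit of the cystine-glutamate exchanger. It was rare in every kidney, with 39, 32 and 28 counts in WT libraries and 83, 32 and 76 in Trpm2-/- 1, 2 and 4, which is above the floor of 3 counts in each. In CPM these were 2.41, 2.06 and 1.72, and 5.08, 2.18 and 4.73. Trpm2-/- 1 and 4 were above every WT kidney and Trpm2-/- 2 was within the WT range. The log2 fold change was the largest in size among the 10 genes, at 0.96 (SE 0.379, 95% interval 0.11 to 1.81), and did not pass the test (edgeR, adjusted p = 0.132). Without Trpm2-/- 2 it was 1.25 and passed (adjusted p = 0.0412), and without Trpm2-/- 1 it was 0.75 (edgeR, adjusted p = 0.311). The annotated gene spans 5 other annotated genes, of which 2 are on its strand, and so its few reads may include theirs. Of the windows of Slc7a11 transcripts, 0.611% also occur in 6 other genes, among them the tubulin genes Tuba1a and Tuba1b. Whether reads of these genes were counted for Slc7a11 was not tested.

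**Figure D2:**
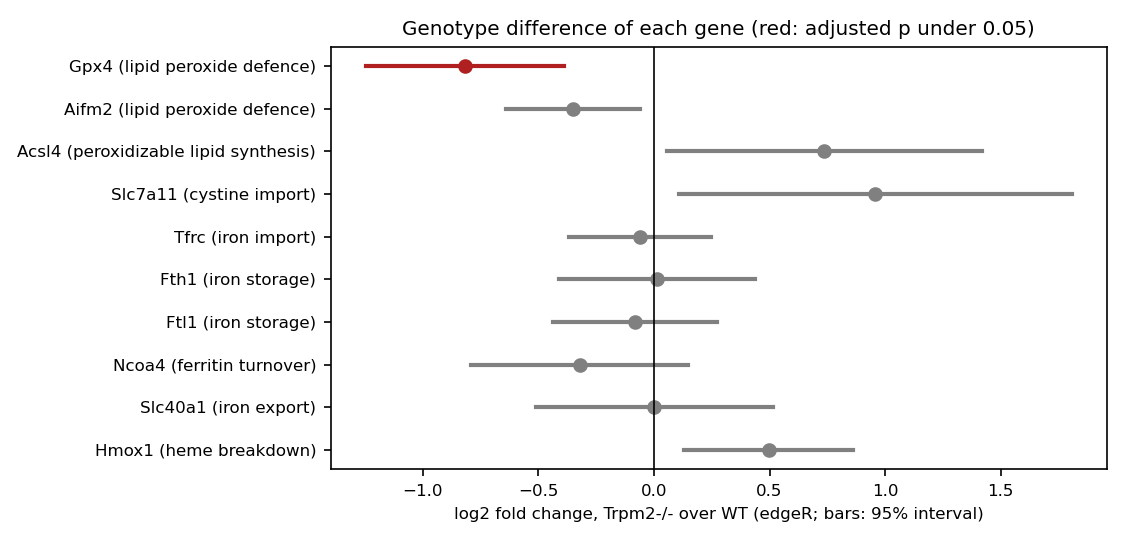
Log2 fold change, Trpm2-/- over WT, of each of the 10 genes with its role, with the 95% interval of the edgeR fit as a bar and genes with an adjusted p under 0.05 in red. Gpx4 (-0.82) is the gene in red, the intervals of Aifm2, Acsl4, Slc7a11 and Hmox1 exclude 0 before adjustment, and those of the ferritins, Tfrc, Ncoa4 and Slc40a1 include it.

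Tfrc, Fth1 and Ftl1 did not pass the test. Tfrc (chromosome 16, 32608920 to 32632794, plus strand), which encodes the receptor for transferrin-bound iron, stood at 78.5, 77.4 and 74.4 CPM in WT and 82.2, 61.9 and 76.7 CPM in Trpm2-/- kidneys. The groups overlapped, with Trpm2-/- 1 the highest and Trpm2-/- 2 the lowest of the 6 kidneys. The log2 fold change was -0.06 (SE 0.137, 95% interval -0.37 to 0.25, adjusted p = 0.816). The interval does not reach the size of the Gpx4 difference in either direction.

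Fth1 (chromosome 19, 9982703 to 9985092, plus strand) encodes the ferritin heavy chain, which oxidizes iron for storage. Its level was 8977, 10284 and 9061 CPM in WT and 10860.2, 9004 and 8719 CPM in Trpm2-/- kidneys. Fth1 took 0.861% to 0.954% of all counts in WT and 0.916% to 1.10% in Trpm2-/- libraries. The groups overlapped and the log2 fold change was 0.01 (SE 0.190, 95% interval -0.41 to 0.44, edgeR, adjusted p = 0.974).

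Ftl1 (chromosome 7, 45457944 to 45459884, minus strand) encodes the ferritin light chain, which helps form the iron core. It stood at 1354, 1520.4 and 1409 CPM in WT and at 1179, 1494 and 1375 CPM in Trpm2-/- kidneys. The groups overlapped, with Trpm2-/- 1 the lowest, and the log2 fold change was -0.08 (SE 0.157, 95% interval -0.43 to 0.27, edgeR, adjusted p = 0.781). Of the windows of its transcripts, 51.32% also occur in 8 other genes, whose rows together held 2.30% of the summed counts. Some are annotated as processed pseudogenes. Ftl1-ps1, which had the most counts of the 8 (311 to 456 in a library), is annotated as protein-coding. Gm10252 and Gm22133 overlap Ftl1 itself, by 416 and 109 bases. Summing the 8 with Ftl1 left the log2 fold change at -0.08. Together, Fth1 and Ftl1 took on average 1.05% of counts in WT and 1.12% in Trpm2-/- libraries.

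Ncoa4 (chromosome 14, 32159865 to 32179855, plus strand) encodes the receptor that delivers ferritin to lysosomes, where iron is freed. Its level was 67.8, 63.3 and 53.4 CPM in WT and 66.2, 36.3 and 45.1 CPM in Trpm2-/- 1, 2 and 4. Trpm2-/- 2 and 4 were below every WT kidney, but Trpm2-/- 1 was within the WT range. The log2 fold change was -0.32 (SE 0.210, 95% interval -0.79 to 0.15, edgeR, adjusted p = 0.355), and -0.31 when the pseudogene Gm6768, which shares 16.89% of the windows, was summed with it.

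Slc40a1 (chromosome 1, 45908068 to 45926523, minus strand) encodes ferroportin, the known cellular exporter of iron. It stood at 72.5, 80.2 and 63.0 CPM in WT and at 101, 50.6 and 64.8 CPM in Trpm2-/- 1, 2 and 4. The 3 Trpm2-/- kidneys spread wider than the WT kidneys and enclosed them. The means were 71.9 ± 8.61 and 72.0 ± 25.7 CPM (SD, n = 3), with a log2 fold change of 0.00 (SE 0.229, 95% interval -0.51 to 0.51, edgeR, adjusted p = 0.996), and the sign of so small a value was not stable between alternatives. Without Trpm2-/- 1 it was -0.32 (adjusted p = 0.258).

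Hmox1 (chromosome 8, 75093621 to 75100589, plus strand) encodes heme oxygenase 1, which opens the heme ring and releases its iron. Its level was 181, 167 and 157 CPM in WT and 252, 187 and 273 CPM in Trpm2-/- 1, 2 and 4. Every Trpm2-/- kidney was above every WT kidney, although Trpm2-/- 2 was above WT 1 by little. The means were 168 ± 11.7 and 237 ± 45.1 CPM (SD, n = 3), and the log2 fold change of 0.50 (SE 0.163, 95% interval 0.13 to 0.86) did not pass the test after adjustment (edgeR, adjusted p = 0.0776). It passed without Trpm2-/- 2 (log2 fold change 0.64, adjusted p = 0.0223), with no filter on low counts (adjusted p = 0.0432) and in the Wald test of DESeq2 (adjusted p = 0.0360). Other fits were further from passing, as without WT 3 (0.45, edgeR, adjusted p = 0.279) or Trpm2-/- 4 (0.39, adjusted p = 0.170). The log2 fold change over all alternatives lay between 0.32 and 0.64. Globin genes, which would mark blood in the tissue, were at or near 0. Windows they share with other genes were not searched, so these low values cannot show that blood was absent. The summed level of 8 erythroid markers was 10.3 to 15.8 CPM in WT and 3.00 to 7.35 CPM in Trpm2-/-. Most of that sum in WT was Slc4a1 (mean 12.2 CPM), which intercalated cells of the collecting duct also express, while Epb42 exceeded Slc4a1 in Trpm2-/- 1 (1.47 and 0.979 CPM).

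Library Trpm2-/- 1 held an extreme of the 6 libraries for 8 of the 10 genes, the highest value for 5 and the lowest for 3. Each other library held an extreme for 1 to 4 genes. It was highest for Acsl4, Slc7a11, Tfrc, Fth1 and Slc40a1, and lowest for Gpx4, Aifm2 and Ftl1. Its summed level of proximal tubule markers, 4009 CPM, was the lowest of the 6, but Trpm2-/- 2 was close at 4072 CPM. Most single markers were lower in Trpm2-/- 2, such as Cubn (52.0 CPM, against 80.0 CPM in Trpm2-/- 1). Kap was among those lower in Trpm2-/- 1 (1585 CPM, against 1780 CPM in Trpm2-/- 2).

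Levels of different genes were compared per gene length, as FPKM (fragments scaled by gene length and by library total). In WT kidneys the order was Fth1 (mean 9536 FPKM), Ftl1 (932), Gpx4 (533), Hmox1 (84.0), Acsl4 (27.8), Tfrc (10.9), Aifm2 (7.44), Slc40a1 (6.99), Ncoa4 (5.75) and Slc7a11 (0.129). Neighbours in that order did not overlap between kidneys except Aifm2 with Slc40a1 and Slc40a1 with Ncoa4. Fth1 ranked 3 in FPKM among all genes in each WT library and 3 to 5 in the Trpm2-/- libraries. Gpx4 ranked 61 to 70 in WT and 92 to 141 in Trpm2-/- libraries. In Trpm2-/- kidneys the order of the means was the same but for Slc40a1 (7.05 FPKM), which stood before Aifm2 (5.88 FPKM), and the ranges from Tfrc to Ncoa4 overlapped from each gene to the next.

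**Figure D3:**
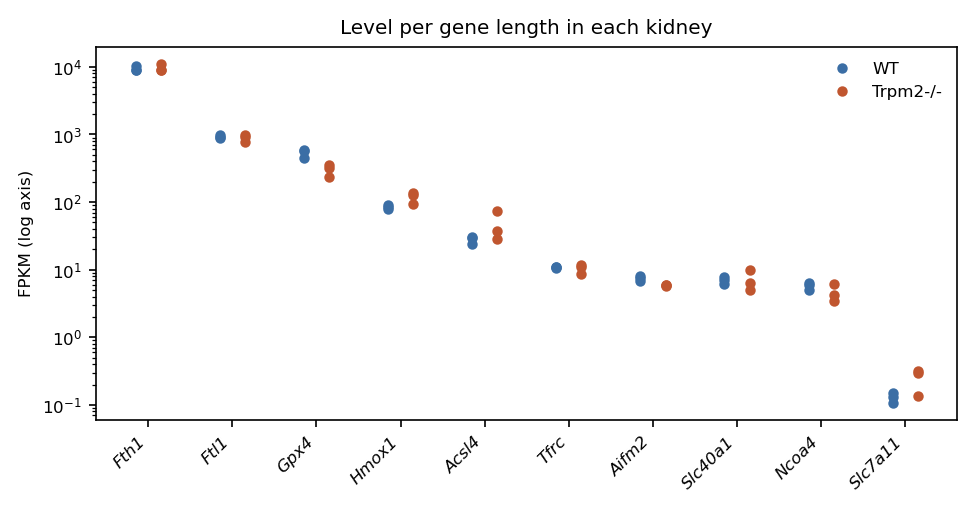
FPKM of the 10 genes in each kidney on a log axis, ordered by their WT mean, with WT in blue and Trpm2-/- in orange, 3 points each. The genes run from Fth1 (9536 FPKM in WT) to Slc7a11 (0.129 FPKM in WT), and Gpx4 follows Ftl1 in both genotypes.

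Ratios between 2 of the genes within a library do not depend on how libraries are scaled. With 3 mice against 3, the exact two-sided permutation test cannot give a p below 0.1, so no ratio could pass 0.05. The ratio of Acsl4 to Gpx4, which sets the making of peroxidizable lipids beside their repair, was 0.0669, 0.0515 and 0.0412 in WT and 0.313, 0.106 and 0.0882 in Trpm2-/- kidneys as FPKM. Every Trpm2-/- kidney was above every WT kidney, with Trpm2-/- 1 farthest, and the mean log2 ratio was 1.45 higher in Trpm2-/- (2.74-fold, exact permutation p = 0.1). The ratio of Slc7a11 to Gpx4 was likewise higher in each Trpm2-/- kidney (3.26-fold, exact permutation p = 0.1). Both ratios share Gpx4, and without Trpm2-/- 1 the Acsl4 to Gpx4 ratio was 0.89 higher on the log2 scale.

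The ratios of iron genes overlapped between genotypes. Tfrc to Fth1, the import receptor beside the storage protein, differed by -0.08 on the log2 scale (exact permutation p = 0.7). Ftl1 to Fth1 was 0.0975, 0.0956 and 0.1005 in WT and 0.0702, 0.107 and 0.102 in Trpm2-/- kidneys as FPKM, a difference of -0.10 on the log2 scale (exact permutation p = 1). Trpm2-/- 1 was the lowest for this ratio and the other two Trpm2-/- kidneys were the highest.

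**Figure D4:**
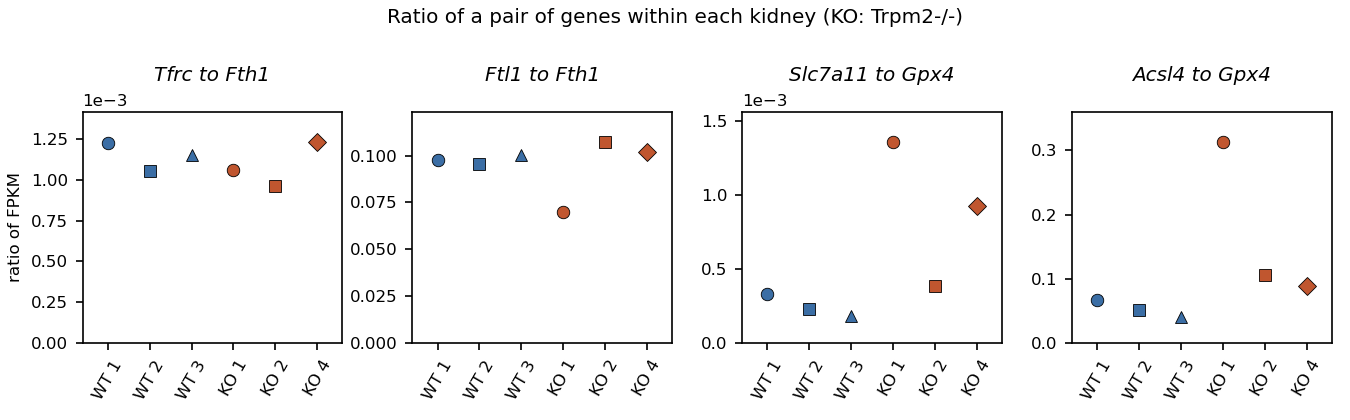
Ratio of FPKM within each of the 6 libraries (WT blue, Trpm2-/- orange, marked KO) for 4 pairs of genes, with the ratio on the vertical axis from 0 and powers of 10 above the axis. The Slc7a11 to Gpx4 and Acsl4 to Gpx4 ratios are higher in each Trpm2-/- library, and the ratios of the iron genes overlap.

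The other genes of these pathways were described from 9 lists of 120 genes, of which 110 were tested. Of the 110, 6 (5.45%, beside 4.74% of all genes) were higher and 24 (21.8%, beside 7.28%) were lower in Trpm2-/- kidneys, and their median log2 fold change was -0.17. The count of lower genes fell to 11 without WT 2 and to 9 without WT 3, and that of higher genes to 2 in either fit. Over all genes tested, lower calls fell from 1152 to 521 and 470 in the same fits. Higher calls over all genes fell there from 750 to 176 and 160. Of the 22 called genes chosen by a rule of size, 9 (Coq8a, Sephs2, Ggt1, Cbs, Cth, Ptgs2, Tfr2, Slc46a1 and Cisd1) kept their call when each library was left out in turn. The lists were compiled by hand with earlier results of these data known. All 12 markers of the proximal tubule, which expresses many of these genes, were lower in the same kidneys, and their part in the counts was not tested.

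Around Gpx4 and Aifm2, 4 of 19 other genes of lipid peroxide defence fell (21.1%, beside 7.28% of all genes) and 1 rose (5.26%, beside 4.74%). The median log2 fold change of the 19 was -0.40. Sephs2, which makes the selenium donor that selenoproteins such as GPX4 need, was 218, 281 and 338 CPM in WT and 127, 108 and 119 CPM in Trpm2-/- kidneys (log2 fold change -1.24, SE 0.173, edgeR, adjusted p = 0.00343). Coq8a, required for the synthesis of coenzyme Q, fell from 75.3 ± 5.86 to 36.2 ± 3.63 CPM (log2 fold change -1.06, adjusted p = 0.00240). For both genes the kidneys of the groups did not overlap. Scd1, which makes the less oxidizable monounsaturated fatty acids, had a log2 fold change of -1.01 (adjusted p = 0.0305), lost without WT 1, WT 3 or Trpm2-/- 1 (adjusted p from 0.0673 to 0.117). Nqo1, a quinone reductase, completed the lower genes at -0.78 (adjusted p = 0.00750). Mboat1, a lysophospholipid acyltransferase, rose from 10.1 ± 0.586 to 18.1 ± 0.928 CPM (log2 fold change 0.83, adjusted p = 0.0122), a call lost without WT 2 or WT 3 (0.0696 and 0.0728).

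Beside Slc7a11, 4 of 11 other genes of cystine and glutathione supply fell (36.4%, beside 7.28% of all genes) and none rose. Cth, the enzyme that yields cysteine from cystathionine, was 197, 213 and 256 CPM in WT and 61.6, 66.0 and 70.7 CPM in Trpm2-/- kidneys. The groups did not overlap, and its log2 fold change was -1.75 (SE 0.144, edgeR, adjusted p = 0.00126). Cbs, the enzyme just before it in transsulfuration, had a log2 fold change of -1.47 (adjusted p = 0.00298). Ggt1, the brush border enzyme that cleaves extracellular glutathione, had one of -1.32 (adjusted p = 0.00710) and Gss, glutathione synthetase, one of -0.55 (adjusted p = 0.0439). The call on Gss was close to the threshold and was not examined with libraries left out.

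Beside Acsl4, 2 of 15 other genes of peroxidizable lipid synthesis and oxidation rose (13.3%, beside 4.74% of all genes) and none fell. The median log2 fold change of the 15 was 0.00. Ptgs2, the inducible prostaglandin synthase whose transcript is often used as a marker of ferroptosis, was 6.91, 5.65 and 2.58 CPM in WT and 22.7, 14.4 and 17.2 CPM in Trpm2-/- kidneys. The groups did not overlap (log2 fold change 1.84, SE 0.339, edgeR, adjusted p = 0.00913). Aloxe3, a lipoxygenase best known from skin, was scarcer, at 2.50 ± 0.494 and 6.54 ± 0.634 CPM (log2 fold change 1.38, adjusted p = 0.0127), and lost its call without WT 3 (adjusted p = 0.0642). Alox15 did not pass the filter on low counts.

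Of 13 other genes of iron import, 3 fell (23.1%, beside 7.28% of all genes) and 1 rose (7.69%, beside 4.74%). Tfr2, the second transferrin receptor, was low at 2.84, 4.50 and 1.84 CPM in WT and 0.184, 0.546 and 0.436 CPM in Trpm2-/- kidneys (log2 fold change -2.96, SE 0.526, edgeR, adjusted p = 0.00787). Its level in Trpm2-/- 1 was at the floor of 3 counts. Trf, transferrin itself, fell from 16.3 ± 4.40 to 4.55 ± 3.03 CPM (log2 fold change -1.84, adjusted p = 0.0229), a call lost without WT 2, WT 3 or Trpm2-/- 1 (adjusted p from 0.0808 to 0.0845). Slc39a8, a metal transporter that takes up iron not bound to transferrin, had a log2 fold change of -1.14 (adjusted p = 0.0164, and 0.0631 without WT 3). Steap2, a ferrireductase, rose from 279 ± 50.2 to 456 ± 93.5 CPM (log2 fold change 0.71, adjusted p = 0.0417), a call lost without WT 1, 2 or 3 or Trpm2-/- 1 (adjusted p from 0.0827 to 0.189).

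Of 5 other genes of iron storage and sensing, Aco1 alone fell (20%, beside 7.28% of all genes) and none rose. Aco1 encodes the cytosolic aconitase that acts as iron regulatory protein 1, which binds the transcripts of Tfrc, the ferritins and Slc40a1. It was 318, 343 and 353 CPM in WT and 265, 192 and 193 CPM in Trpm2-/- kidneys, without overlap (log2 fold change -0.64, SE 0.161, edgeR, adjusted p = 0.0320). The call was lost without WT 1, 2 or 3 or Trpm2-/- 2 or 4 (adjusted p from 0.0547 to 0.135). Of the export and hepcidin genes, 4 of 9 were tested and 1 was called higher (25%, beside 4.74% of all genes). This was Cp, the ferroxidase ceruloplasmin that loads exported iron onto transferrin. It rose from 156 ± 27.2 to 353 ± 105 CPM (log2 fold change 1.17, edgeR, adjusted p = 0.0128, and 0.0660 without WT 2). Hamp, the hepcidin gene, did not pass the filter on low counts, and Ftmt and Hamp2 were at 0 in every library.

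**Figure D5:**
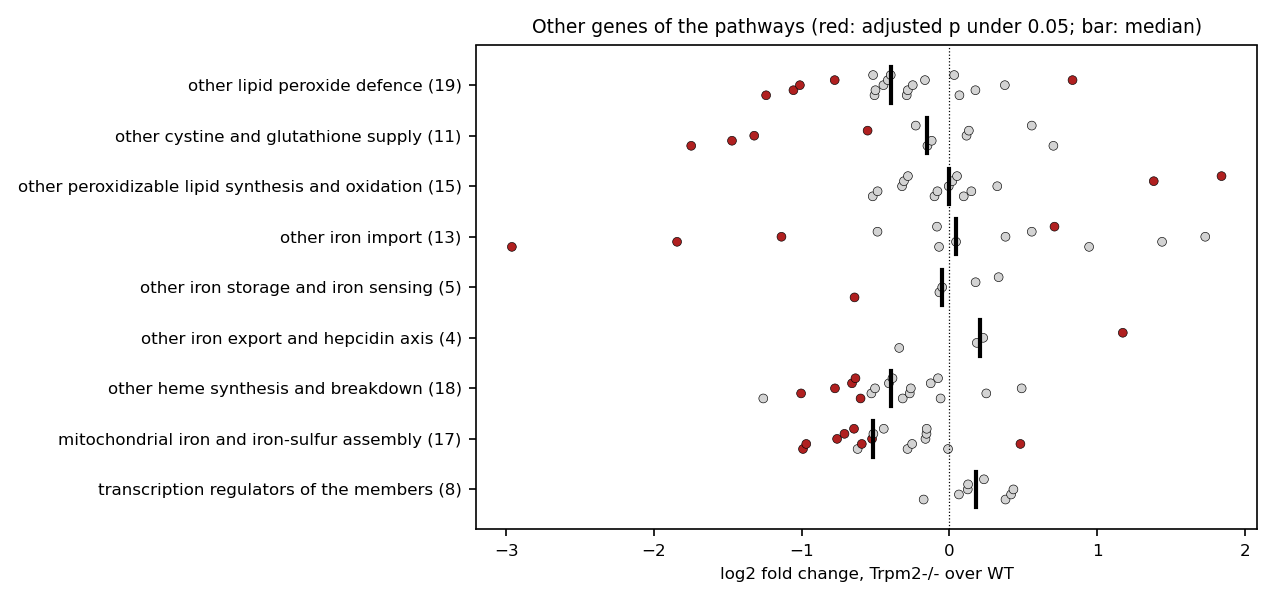
Log2 fold change, Trpm2-/- over WT, of each tested gene of the 9 lists of other pathway genes, with the number tested in brackets, genes with an adjusted p under 0.05 in red and the median of each list as a bar. The lowest medians are those of mitochondrial iron and iron-sulfur assembly (-0.51), lipid peroxide defence (-0.40) and heme synthesis and breakdown (-0.40).

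Of 18 other genes of heme synthesis and breakdown, 5 fell (27.8%, beside 7.28% of all genes) and none rose. The median log2 fold change of the 18 was -0.40. Slc46a1, a carrier of folate and heme, fell from 29.7 ± 2.48 to 14.8 ± 2.36 CPM (adjusted p = 0.00596). Log2 fold changes were -0.77 for Alas1, the first enzyme of heme synthesis (adjusted p = 0.0205), -0.64 for Blvrb (adjusted p = 0.00932) and -0.60 for Urod (adjusted p = 0.0203). Alas1 was 373, 436 and 440.5 CPM in WT and 290.1, 248 and 193 CPM in Trpm2-/- kidneys. The call on Alas1 was lost without WT 2 or WT 3 (adjusted p from 0.0877 to 0.0942). Alas1 and Urod act in building the heme ring, and Blvrb acts on its breakdown products.

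Of 17 genes of mitochondrial iron and iron-sulfur assembly, 7 fell (41.2%, beside 7.28% of all genes) and 1 rose (5.88%, beside 4.74%). A log2 fold change below 0 was found for 16 of the 17, beside 7661 of the 15816 genes tested. Cisd1 (mitoNEET), an iron-sulfur protein of the outer membrane, was 231, 288 and 319 CPM in WT and 132, 148 and 142 CPM in Trpm2-/- kidneys (log2 fold change -0.99, SE 0.151, edgeR, adjusted p = 0.00457). Cisd3, its relative inside the organelle, had a log2 fold change of -0.97 (adjusted p = 0.0148), and Lyrm4, a partner of the cysteine desulfurase Nfs1, one of -0.76 (adjusted p = 0.0446). The call on Cisd3 was lost without WT 2 or WT 3 (adjusted p from 0.0588 to 0.0665), and that on Lyrm4 without any library other than Trpm2-/- 4 (adjusted p from 0.0564 to 0.194). Slc25a37 (mitoferrin 1), the importer of iron into mitochondria, rose from 69.2 ± 7.30 to 96.6 ± 6.96 CPM (log2 fold change 0.48, adjusted p = 0.0432), a call lost without any library other than Trpm2-/- 1 (adjusted p from 0.0605 to 0.205).

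None of 8 transcription regulators of the 10 genes passed the test. Nfe2l2, which encodes the antioxidant factor NRF2 that induces Hmox1, Slc7a11 and the ferritins, was 243, 243 and 213 CPM in WT and 316, 234 and 272 CPM in Trpm2-/- kidneys (log2 fold change 0.23, SE 0.149, edgeR, adjusted p = 0.343). Bach1, the heme-sensing repressor of Hmox1, was 68.1 CPM in Trpm2-/- 1 and 35.9 to 40.3 CPM in the other 5 libraries (log2 fold change 0.38, adjusted p = 0.281). Atf4, which encodes the factor for the element matched in the Slc7a11 promoter above, had a log2 fold change of 0.12 (adjusted p = 0.634). Trp53, the gene of p53, a repressor of Slc7a11, did not overlap between groups but did not pass (63.7 ± 4.96 and 85.1 ± 13.7 CPM, log2 fold change 0.42, adjusted p = 0.0986), except without Trpm2-/- 2 (adjusted p = 0.0410). Keap1 (-0.17), Hif1a (0.06), Epas1 (0.43) and Hsf1 (0.13) had adjusted p from 0.275 to 0.880. These are transcript levels, and NRF2 and ATF4 are known to be controlled largely as proteins.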

How the data were processed

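RNA-sequencing libraries of 3 WT and 3 Trpm2-/- kidneys were analysed, 1 per mouse, grouped by the genotype label. The authors deposited whole-number read counts per gene, without normalization, and FPKM values made from them by gene length and library total. The submitters' processing notes name HISAT2, StringTie and mm9, but gene positions in the tables equal those of GRCm38 for 9 of the 10 genes, and that build is used here. The counting tool and strandedness are not given in the sources used here. The labels give an age of 6 to 8 weeks, and the study's methods an older range and male mice.

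Counts were filtered with filterByExpr, scaled by TMM and tested for genotype, two-sided, in the quasi-likelihood model of edgeR 4.0.16 (R 4.3.3), with Benjamini-Hochberg adjustment over the 15816 genes tested. Each standard error is the size of the log2 fold change over the root of its F value. CPM are TMM-scaled. The fits were run on simulated counts with larger changes than those of the 10 genes and the same spread setting for every gene. That check does not show what the fits can detect at the sizes seen here. The alternatives were DESeq2 1.42.0 (size factors, Wald test), upper quartile scaling, limma-voom and limma 3.58.1 on log2(FPKM + 1) and log2(FPKM + 0.1), other filters (none, at least 1 CPM in 3 libraries, mean FPKM of at least 1), no mitochondrial genes, a replicate block and fits without each library. Summing genes with their copies was chosen after seeing the data. The 10 genes, the lists and the tests were chosen with earlier results of these data known. Named genes are the 10, Trpm2, their regulators and, per list, at most 3 called genes higher and 3 lower of at least 1 CPM by size of change, of which 1 is not reported here. Nqo1, Gss, Blvrb, Urod, Krt20, Sox9, C1qa, C1qc, Slc4a1, Epb42, H2afy2, Gpx4-ps2, Gm6768, Alox15, Hamp, Hamp2 and Ftmt were named after their values were seen. So were Cubn, Kap, Spp1, Havcr1, Cd14, Csf1r, Ftl1-ps1, Gm10252, Gm22133, Tuba1a and Tuba1b. Calls on genes named in this way were not examined with single libraries left out. Copies were sought as 75-base windows of GENCODE release M21 transcripts. No library was a duplicate: replicates differed beyond sampling noise (chi-square per degree of freedom 13.5 to 36.7). Nothing states that the kidneys of a group were processed independently, so p-values cover the spread between these samples. Marker lists of other nephron segments (2233 to 3288 CPM in WT, 906 to 1835 in Trpm2-/-), endothelium (66.5 to 78.3, 38.3 to 160.0), fibroblasts (55.0 to 82.6, 37.8 to 141) and urothelium (7.52 to 49.2, 6.37 to 8.67) were summed too.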

Additional observations from a re-analysis of the deposited data

How the results depend on the processing

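The direction of Gpx4, Aifm2, Acsl4, Slc7a11, Ncoa4 and Hmox1 was the same under every alternative fitted, and Slc7a11 could not be fitted in the 2 FPKM settings that need a mean FPKM of 1. Of the 10 genes, 2 (Acsl4 and Hmox1) were called higher with no filter on low counts, and 1 (Hmox1) in the DESeq2 Wald test. On log2(FPKM + 1) without a filter 0 were called lower, Gpx4 having an adjusted p of 0.0912 in limma. Of all genes, 1262 were called higher with no filter, 465 on log2(FPKM + 1), 412 on log2(FPKM + 0.1) and 255 on log2(FPKM + 1) without a filter, where 526 were called lower. Of the pathway lists, 11 genes were called higher with no filter, 10 in the DESeq2 Wald test, 3 on log2(FPKM + 0.1) and 2 on log2(FPKM + 1) without a filter, where 11 were called lower. The cause of these differences was not tested.

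With each library left out in turn, 0 to 2 of the 10 genes were called higher and 0 to 1 lower, 160 to 819 of all genes higher and 470 to 1240 lower, and 2 to 8 genes of the pathway lists higher and 9 to 24 lower. These fits have fewer samples. The counts of all genes were lowest without WT 3, followed by WT 2 (176 higher and 521 lower) and, for higher genes, Trpm2-/- 1 (421). The sign of near-zero values turned. The log2 fold change was -0.15 to 0.048 for Tfrc, -0.093 to 0.084 for Fth1, -0.16 to 0.0048 for Ftl1, -0.32 to 0.20 for Slc40a1, -0.35 to 0.0079 for Keap1 and -0.16 to 0.27 for Hif1a. The mean log2 ratio differed by -0.18 to 0.0025 for Tfrc to Fth1 and by -0.21 to 0.10 for Ftl1 to Fth1. Slc40a1 was also at -0.0099 with no filter, -0.050 in limma-voom, -0.029 on log2(FPKM + 1) with and without a filter and -0.038 on log2(FPKM + 0.1).

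Numbers 1 and 2 occur in both genotypes, but the mice differ. Deviations of same-numbered libraries correlated at 0.11 and 0.007, and those of other pairs across genotypes at -0.32 to 0.27. With so few pairs, these values cannot show whether same-numbered libraries share more than a number. With the replicate block, 341 of all genes were called higher and 661 lower, 3 genes of the pathway lists higher and 12 lower, and 0 of the 10 genes either way, with Gpx4 at an adjusted p of 0.0583 (edgeR). In this fit Slc40a1 was at -0.092 and Hif1a at -0.036. With 3 kidneys a group, 28 to 83 counts of Slc7a11 in a library and shared windows of Gpx4 and Ftl1 limit what these values can show.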
